A study of Mus musculus with 6 samples.

Results

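Mgarp and 8 genes of mitochondrial transport and fusion were followed in KMWT1, a mouse glioma cell line, after an siRNA pool against the transcription factor YY1. The 9 genes were taken by symbol from count tables that list 24982 symbols: Mgarp, Trak1, Trak2, Rhot1, Rhot2, Kif5b, Mfn1, Mfn2 and Opa1. Mgarp was chosen by its low counts with YY1 siRNA in these same samples, so its values are a description and carry no test. The other 8 were listed for their role, and all 9 were among the 12148 genes with enough counts to be tested. The study compared 3 samples that received a control siRNA (samples 1, 2 and 3) with 3 that received the YY1 siRNA (samples 4, 5 and 6). RNA of every sample was taken 48 hours after transfection of the same line, and no other genotype or agent differs between the groups in the labels. Whether the 3 samples of a group are separate cultures is not in the labels, and p-values therefore cover only the spread between them, which may be technical. The count table of sample 6 also lacks the mark "combined" that the other 5 carry, and no source used here says what that mark stands for.

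Mitochondria travel along microtubules on a small complex at their outer membrane. The GTPases Miro1 and Miro2, encoded by Rhot1 and Rhot2, are anchored there and bind the adaptors TRAK1 and TRAK2, which in turn hold kinesin-1, whose most widely expressed heavy chain is encoded by Kif5b. MGARP, also called HUMMR, is a mitochondrial protein induced by hypoxia through HIF-1 that binds the Miro proteins and favours outward transport. Mitochondria also fuse: the mitofusins, encoded by Mfn1 and Mfn2, join outer membranes, and OPA1 joins inner membranes and keeps the cristae in shape. MFN2 also binds the Miro and TRAK proteins.

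The promoters of 8 of the 9 genes were found in the RefSeq promoter table (build GRCm38.p6, the NCBI name of mm10), each as windows of 250 bases before to 50 bases after a start. Both strands of each window were searched for the YY1 motif AANATGGCG, for the HIF response element in its forms ACGTG and GCGTG, and for the core of the near-palindromic motif of the mitochondrial gene regulator NRF1, GCGCANGCG. Of 32851 windows of this length over all genes, 2.38% held the YY1 motif, 43.8% a HIF response element and 6.25% the NRF1 motif. Counted per gene, as the 8 are, 6.16%, 68.1% and 15.8% of the 9576 tested genes with a window held them in at least 1 window. Kif5b had no window and was not searched. Among the other 8 genes the YY1 motif was found in the window of Mfn1 and the NRF1 motif in that of Opa1. A HIF response element was found in windows of Mgarp, Trak1, Rhot1 and Mfn2. A match says only that these letters are present, and its absence says nothing of binding by the factor. Parts of 3 windows are printed because they belong to the gene with the lowest level relative to control, the gene with the YY1 motif and the gene with the NRF1 motif. Each runs 5′ to 3′ on the gene's strand and ends at the base before the RefSeq start, with the match in capitals. For Mgarp (chr3:51396548-51396797, minus strand, 250 bases) the capitals mark a HIF response element on the opposite strand whose first base is at position -219 from the start, and neither of the other motifs was present. For Mfn1 (chr3:32529332-32529481, plus strand, 150 bases) they mark the YY1 motif from position -109. For Opa1 (chr16:29579214-29579333, plus strand, 120 bases) they mark 2 overlapping matches of the NRF1 motif, 1 on each strand, from position -59. The GENCODE M21 gene models begin at 51396738 for Mgarp and 32529465 for Mfn1, upstream of their RefSeq starts. Most of the Mgarp stretch and the last bases of the Mfn1 stretch therefore lie inside those models, with the marked match before each model's start.
Mgarp: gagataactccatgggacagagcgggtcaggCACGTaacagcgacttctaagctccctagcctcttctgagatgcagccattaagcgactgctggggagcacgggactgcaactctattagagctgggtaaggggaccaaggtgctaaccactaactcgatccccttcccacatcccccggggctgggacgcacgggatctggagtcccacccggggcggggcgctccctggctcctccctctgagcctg
Mfn1: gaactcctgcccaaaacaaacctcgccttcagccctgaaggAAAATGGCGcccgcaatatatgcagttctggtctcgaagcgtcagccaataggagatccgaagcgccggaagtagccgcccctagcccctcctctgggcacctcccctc
Opa1: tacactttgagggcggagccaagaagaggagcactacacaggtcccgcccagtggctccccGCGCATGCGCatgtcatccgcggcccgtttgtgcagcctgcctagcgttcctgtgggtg

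Libraries held 15738457 to 20644057 counts in genes, and levels are given as CPM, counts scaled to a common library size, after TMM scaling, which corrects for differences in library composition. Sample 6 had the fewest counts and differed most from the other YY1 siRNA samples (chi-square per degree of freedom 32.5 against sample 4 and 23.8 against sample 5, against 3.13 to 11.2 for the other pairs within a group). Counts assigned to no gene made up 10.7% of sample 5 and 11.3% of sample 6, against 7.87% to 9.03% of the other 4. Yy1, the siRNA target, fell from 127 ± 0.826 to 79.2 ± 1.86 CPM (SD, n = 3), or by 0.68 on the log2 scale with an SE of 0.064 (edgeR adjusted p 0.00154). Of 10 glioma and neural progenitor markers, 6 stood at 10 CPM or more in the mean of all samples, while Olig2, Fabp7 and Prom1 had no counts and Gfap at most 2. All 6 neuronal, 5 microglial and 4 of 5 oligodendrocyte markers were under 1 CPM, but Cdh5 and Flt1 of the 5 endothelial and 4 of the 5 fibroblast and pericyte markers were not. The summed endothelial level was 165 to 193 CPM in controls and 151 to 187 CPM with YY1 siRNA, and the summed fibroblast level 954 to 1114 and 804 to 1024 CPM. These sums overlapped between the groups, and their part in the results was not tested.

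Mgarp (ENSMUSG00000037161.14, chromosome 3, 51388412 to 51396738, minus strand, with no other gene annotated over it) was lower in the YY1 siRNA samples. Its level was 63.9, 64.7 and 61.1 CPM in controls 1, 2 and 3, and 47.0, 41.3 and 44.9 CPM with YY1 siRNA in samples 4, 5 and 6. The highest YY1 siRNA sample lay well below the lowest control, and sample 5 was the lowest of all. The fitted level was 70.2% of control (95% interval 62.9% to 78.4%), a log2 fold change of -0.51 (SE 0.073). These are the values that chose the gene. In the same fit its edgeR adjusted p was 0.0713, over the threshold of 0.05, so that Mgarp was not called changed in the main test, and DESeq2 gave an adjusted p of 0.000862. Neither p is independent of the choice. The counts behind these levels ran from 687 to 1328 per library, at which counting alone gives an error of up to 3.82%.

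**Figure D1:**
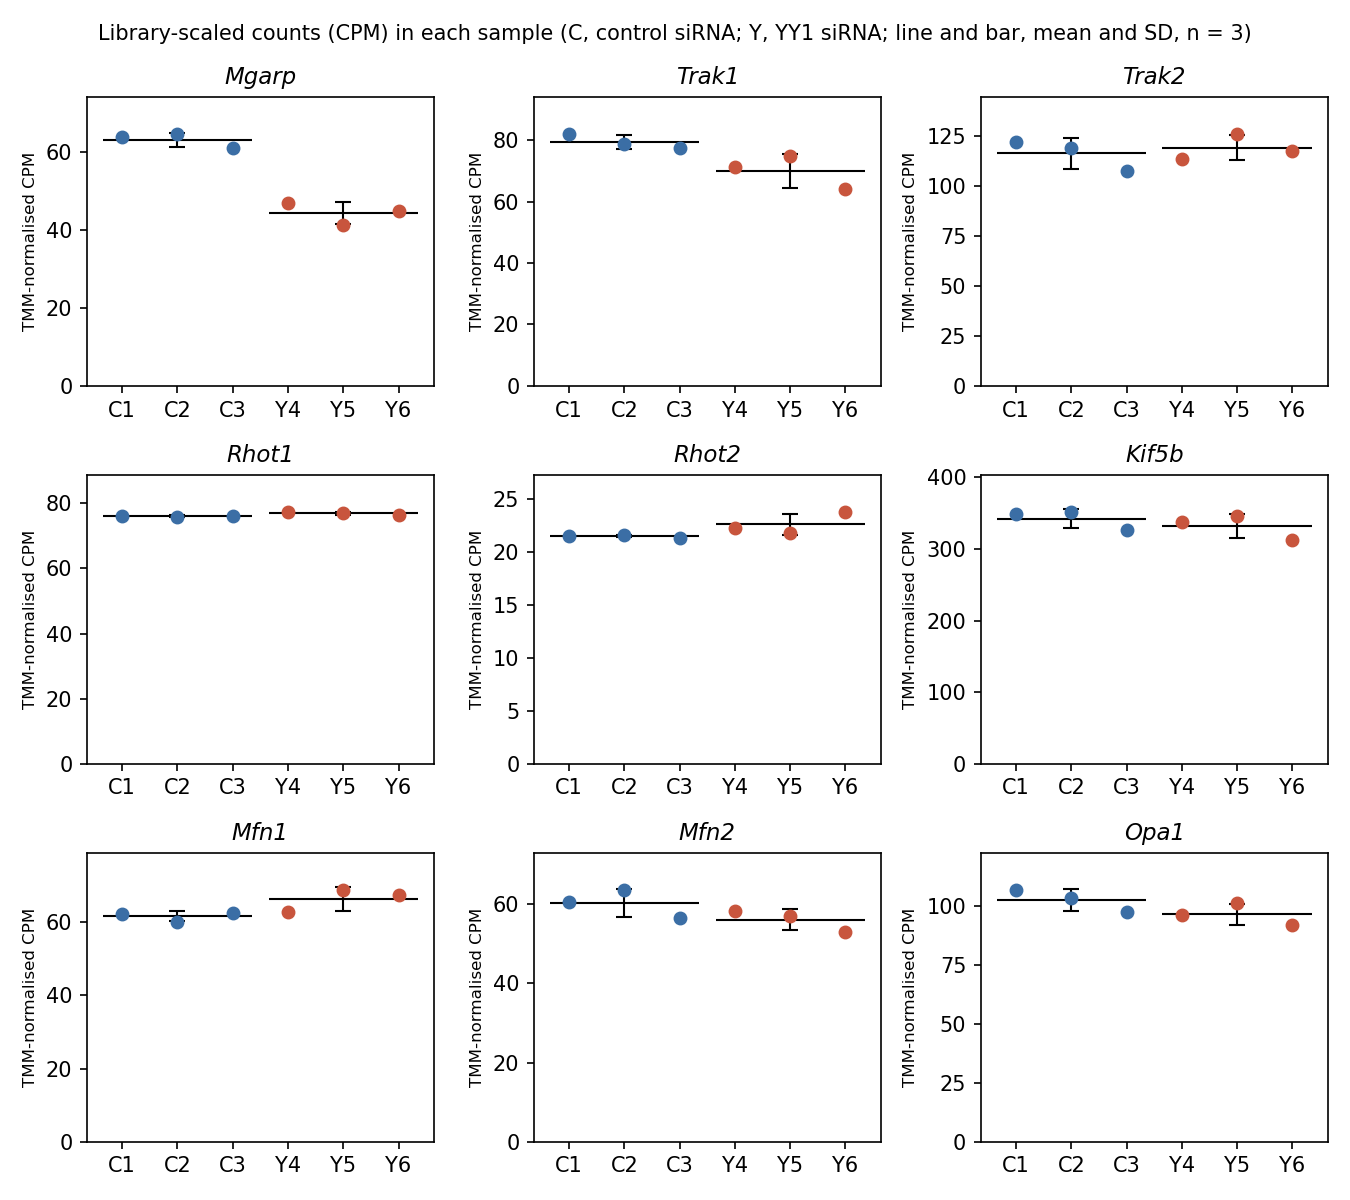
TMM-normalised CPM (y axes, from 0) of the 9 genes in control siRNA samples (C1 to C3, blue) and YY1 siRNA samples (Y4 to Y6, red), with group mean (line) and SD (bar), n = 3. Mgarp sits at 61.1 to 64.7 CPM in controls and 41.3 to 47.0 CPM with YY1 siRNA, while the other 8 genes stay near their control levels.

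None of the 8 other genes passed the edgeR test over all genes, DESeq2 or limma-voom at an adjusted p of 0.05. The main test called 0.00823% of all tested genes, which is Yy1 alone, and DESeq2 called 0.156%. At an unadjusted p under 0.05 the main edgeR test picked 1 of the 8, Trak1, and 10.8% of all tested genes. Of the 8, 4 had a fitted change above 0, as had 6100 of the 12148 tested genes, and their median log2 fold change was -0.013, against 0.00070 over all tested genes. The 95% intervals of all 8 lay between 78.8% and 119% of control, so each excluded a change of 1.5-fold either way. The same held for 82.2% of all tested genes. In simulated counts for this comparison, 76.0% of 200 genes changed by 1.5-fold were recovered, and 0.50% of those changed by 1.2-fold; these genes were drawn from all tested genes, and recovery at the levels of the 8 was not computed.

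**Figure D2:**
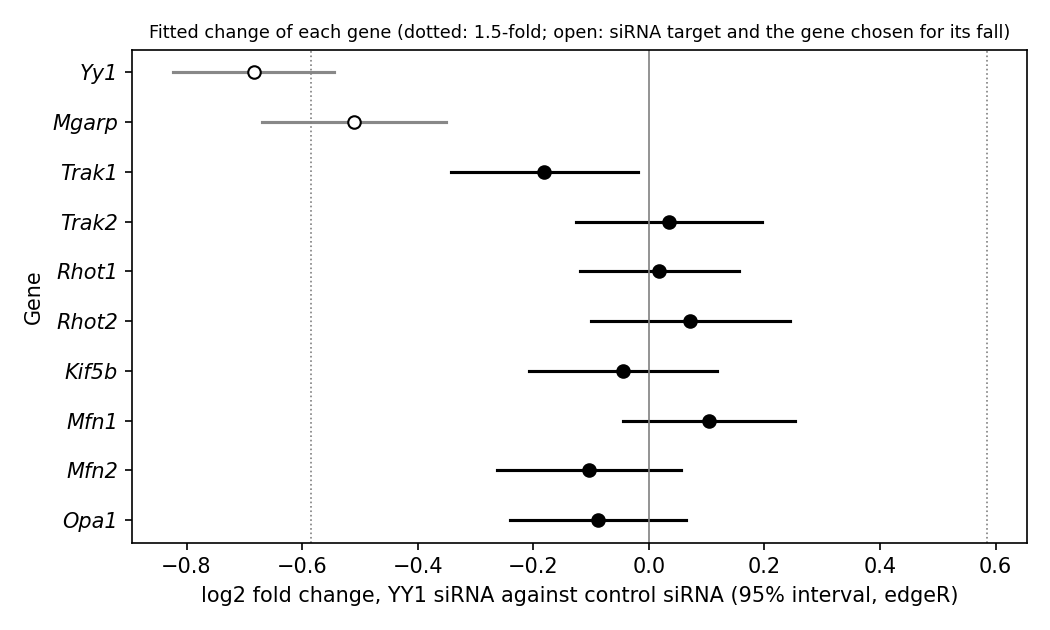
Fitted log2 fold change (x axis, points) with 95% intervals (lines) for Yy1 and the 9 genes (y axis), with dotted lines at 1.5-fold. The intervals of the 8 genes other than Mgarp and Yy1 all stay inside the dotted lines, and that of Trak1 alone among them leaves out 0, before adjustment.

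Of the adaptor genes, Trak1 was lower in every YY1 siRNA sample and Trak2 overlapped between the groups. Trak1 (ENSMUSG00000032536.11, chromosome 9, 121297502 to 121474918, plus strand) stood at 81.9, 78.8 and 77.4 CPM in controls and at 71.1, 74.8 and 64.0 CPM with YY1 siRNA (samples 4, 5 and 6). All YY1 siRNA samples lay below all controls, as they did for 8.91% of tested genes, and sample 6 was the lowest. The log2 fold change was -0.18 (SE 0.075; unadjusted p 0.0316, edgeR adjusted p 0.420). Without sample 6 it was -0.13 (adjusted p 0.675), and with the no-gene share as a covariate -0.15 (adjusted p 0.700). Trak2 (ENSMUSG00000026028.12, chromosome 1, 58900449 to 58973430, minus strand) stood at 122, 119 and 108 CPM in controls and 114, 126 and 118 CPM with YY1 siRNA, and the groups overlapped. Its log2 fold change of 0.034 (SE 0.074) turned to -0.018 when control sample 3 was left out and to -0.0076 when YY1 siRNA sample 5 was.

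The Miro genes had the smallest spread among control samples, with an SD of 0.352% of the mean for Rhot1 and 0.512% for Rhot2, against 2.15% to 6.50% for the other 7 genes. Counting alone gives an error of up to 2.92% for Rhot1 and 5.24% for Rhot2 in 1 library, so these spreads do not show steadier levels. Rhot1 (ENSMUSG00000017686.17, chromosome 11, 80209019 to 80267907, plus strand) stood at 76.1, 75.7 and 76.2 CPM in controls and at 77.2, 77.2 and 76.4 CPM with YY1 siRNA. The groups did not overlap, as for 16.3% of tested genes, but the fitted level was 101% of control. That difference is smaller than the counting error of 1 library, 2.92% at 1171 counts. With library size alone as the scaling, the sign of the Rhot1 change turned (log2 fold change -0.0035, against 0.018 with TMM) and the groups overlapped. Rhot2 (ENSMUSG00000025733.17, chromosome 17, 25838457 to 25844851, minus strand) stood at 21.5, 21.6 and 21.4 CPM in controls and 22.2, 21.8 and 23.8 CPM with YY1 siRNA. Its YY1 siRNA samples all lay above its controls by small amounts, as for 7.36% of tested genes, sample 6 being the highest, and its log2 fold change of 0.072 (SE 0.080) was 0.029 without sample 6. Exons of Rhot2 overlap those of Wdr90 and Gm20683 on the same strand, so its counts are uncertain.

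Kif5b (ENSMUSG00000006740.14), the kinesin motor, stood at 348, 351 and 327 CPM in controls and 337, 346 and 313 CPM with YY1 siRNA. The groups overlapped, sample 6 was the lowest, and the log2 fold change was -0.044 (SE 0.075), or -0.0096 without sample 6. Its exons overlap AC113003.1 and Gm17036, annotated antisense to it, and whether the counting used strand was not stated. Of the other kinesin-1 heavy chains, Kif5c stood at 1.86 ± 0.250 and 1.79 ± 0.435 CPM, and Kif5a had at most 6 counts in a library; both are named outside the naming rule, after their values were seen.

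The fusion genes lay on both sides of their control levels. Mfn1 (ENSMUSG00000027668.13, chromosome 3, 32529465 to 32579239, plus strand), the gene with the YY1 motif in the window printed above, stood at 62.2, 60.1 and 62.5 CPM in controls and 62.6, 68.6 and 67.4 CPM with YY1 siRNA. Sample 4 lay barely above the highest control and samples 5 and 6 further above, and with library size alone the groups overlapped. The change was 0.10 on the log2 scale, with an SE of 0.069 (edgeR adjusted p 0.569). Mfn2 (ENSMUSG00000029020.13, chromosome 4, 147873599 to 147904704, minus strand) stood at 60.5, 63.4 and 56.5 CPM in controls and 58.0, 56.9 and 52.9 CPM with YY1 siRNA, with overlapping groups and a log2 fold change of -0.10 (SE 0.073), which was -0.064 without control 2. Opa1 (ENSMUSG00000038084.16, chromosome 16, 29579334 to 29654884, plus strand) stood at 107, 103 and 97.5 CPM in controls and 96.3, 101 and 91.9 CPM with YY1 siRNA. Its groups overlapped as well, and its log2 fold change was -0.088 (SE 0.070), or -0.058 without control 1.

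The balance within each pair of related genes was taken inside each library, where scaling between libraries cancels. The ratio of Trak1 to Trak2 was 0.670, 0.661 and 0.717 in control siRNA samples and 0.624, 0.593 and 0.543 in YY1 siRNA samples 4, 5 and 6, without overlap. The mean difference in log2 ratio was -0.22 (controls -0.55 ± 0.063, YY1 siRNA -0.77 ± 0.10, SD, n = 3; exact permutation p 0.1, two-sided, adjusted over the 3 ratios 0.2). An exact p of 0.1 is the smallest that 3 against 3 samples can give, so no ratio could pass 0.05. The ratio of Mfn1 to Mfn2 was 1.03, 0.948 and 1.11 in controls and 1.08, 1.21 and 1.27 with YY1 siRNA, with sample 4 inside the control range (log2 difference 0.21, exact permutation p 0.2, adjusted 0.2). The ratio of Rhot1 to Rhot2 was 3.54, 3.50 and 3.56 in controls and 3.47, 3.54 and 3.22 with YY1 siRNA (log2 difference -0.054, exact permutation p 0.2, adjusted 0.2). Without sample 6 the Rhot1 to Rhot2 difference was -0.013. In all 3 pairs sample 6 lay farthest from the control mean.

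**Figure D3:**
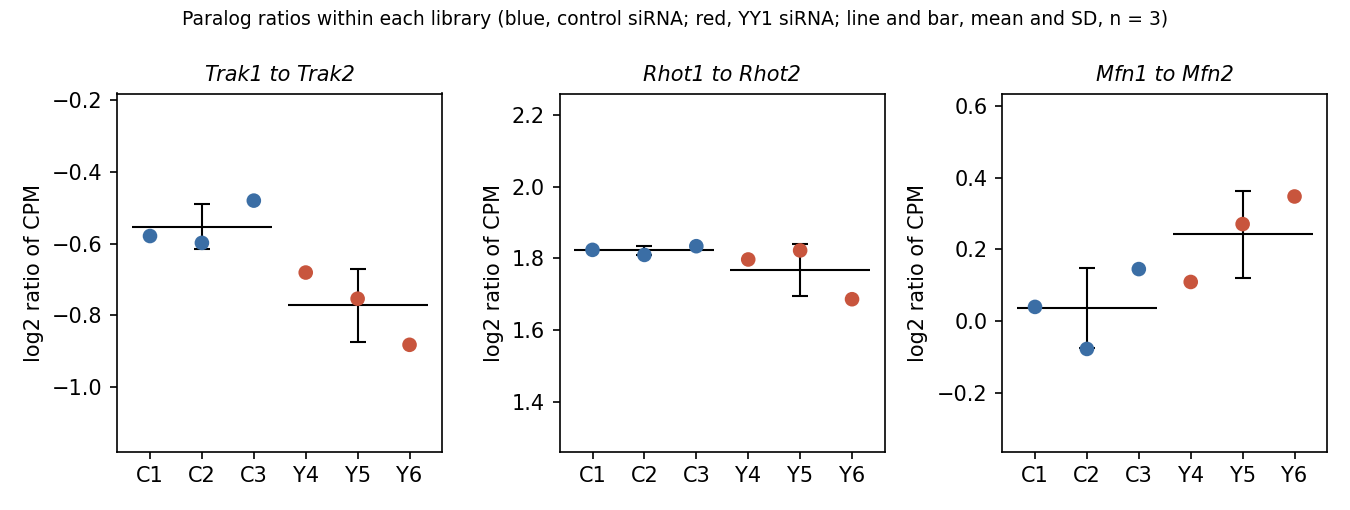
Log2 ratio of CPM within each library (y axes, each spanning the same range) for Trak1 to Trak2, Rhot1 to Rhot2 and Mfn1 to Mfn2, in control siRNA (blue) and YY1 siRNA samples (red), with mean and SD, n = 3. The groups separate for Trak1 to Trak2 and overlap for the other pairs.

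Mgarp was set against each of the other 8 genes inside the same library. It gave 0.801 to 0.855 counts for each count of Rhot1 in control siRNA samples and 0.535 to 0.608 in YY1 siRNA samples. Per count of Trak1 it gave 0.780 to 0.821 and 0.552 to 0.701, and per count of Kif5b 0.183 to 0.187 and 0.120 to 0.143. The ranges did not overlap for any of the 8 genes. These ratios carry the values that chose Mgarp and are given as a description.

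Levels of different genes were compared per kilobase of annotated exon. In control siRNA samples Kif5b stood highest at 42.9 ± 1.69 CPM per kilobase (SD, n = 3), followed by Mgarp at 30.6 ± 0.920 and Trak2 at 16.4 ± 1.07. Opa1 followed at 13.0 ± 0.592, Mfn2 at 11.6 ± 0.665, Rhot1 at 10.2 ± 0.036 and Mfn1 at 10.1 ± 0.217. Trak1 at 6.32 ± 0.184 and Rhot2 at 4.84 ± 0.025 were the lowest. Rhot1 and Mfn1 did not differ beyond their spread. In YY1 siRNA samples Mgarp stood at 21.5 ± 1.39 CPM per kilobase, still between Kif5b at 41.6 ± 2.15 and Trak2 at 16.8 ± 0.876. Mfn1 at 10.8 ± 0.518, Mfn2 at 10.8 ± 0.514 and Rhot1 at 10.4 ± 0.059 did not differ beyond their spread there. Exon length counts every annotated isoform (12568 bases for Trak1 and 2067 for Mgarp), which understates a gene read mainly from a shorter one.

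By the smallest root mean square difference in log2 CPM over the 6 samples, each gene centred on its own mean, the genes most like Mgarp among 8889 with at least 10 CPM were Gxylt2 (0.061), Sumf2 (0.065), Hacd1 (0.067), Lmf1 (0.068), Aldh6a1 (0.075) and Cand2 (0.075). Gxylt2 encodes a xylosyltransferase, Hacd1 a dehydratase of fatty acid elongation, Lmf1 a factor for the maturation of lipases in the endoplasmic reticulum and Aldh6a1 a mitochondrial dehydrogenase of valine breakdown. Hacd1, the most abundant of them, stood at 71.7 ± 2.38 CPM in controls and 55.2 ± 3.41 CPM with YY1 siRNA (SD, n = 3). Msto1, a gene of mitochondrial distribution and shape named after its values were seen, was 11th in this order (22.8 ± 0.662 and 17.1 ± 1.52 CPM). Of the 8 transport and fusion genes, the nearest to Mgarp was Trak1 at a distance of 0.19, 589th in the order, followed by Mfn2 at 0.22, 1170th. Yy1 itself was 22nd at 0.096. Genes near Mgarp by this measure are low with YY1 siRNA by construction.

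**Figure D4:**
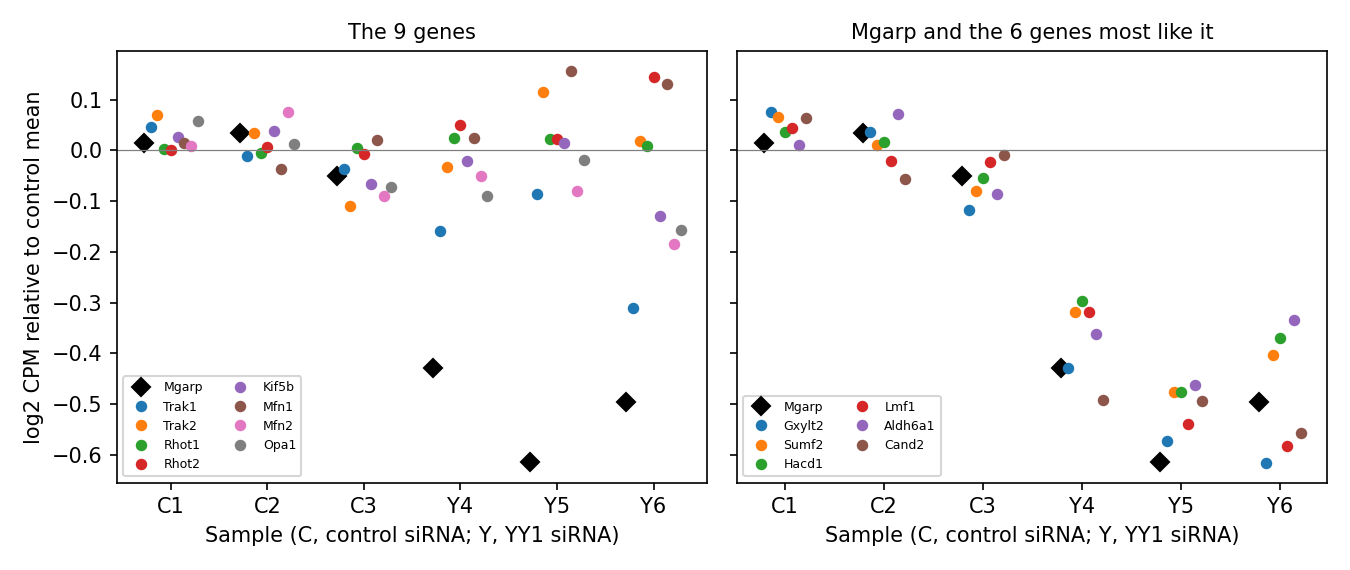
Log2 CPM of each gene relative to its control mean (y axis) in each sample (x axis) for the 9 genes (left) and for Mgarp with the 6 genes nearest to it (right). Mgarp (black diamonds) stands below the other 8 genes in all 3 YY1 siRNA samples, with Trak1 in sample 6 the closest of them.

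The other genes within 250000 bases of Mgarp were read from the same fit. Of 7 tested neighbours, 0 passed the edgeR test over all genes, 2 had an unadjusted p under 0.05, 6 had a fitted change above 0, and the lowest log2 fold change was -0.043, that of Noct. Over all tested genes, 0.00823% passed that test, 10.8% had such an unadjusted p and 6100 of 12148 had a change above 0. None of the 7 had all YY1 siRNA samples below all controls, as 8.91% of tested genes had, and 2 had them all above, as 7.36% had. Ndufc1, a subunit gene of respiratory complex I that lies 7939 bases upstream of Mgarp on the same strand, stood at 54.2, 49.9 and 59.7 CPM in controls and 63.7, 58.4 and 75.3 CPM with YY1 siRNA. Its groups overlapped (log2 fold change 0.27, SE 0.099, unadjusted p 0.0198, edgeR adjusted p 0.379). Naa15, which encodes a subunit of an N-terminal acetyltransferase, also had an unadjusted p under 0.05 (0.18, SE 0.082, edgeR adjusted p 0.455).

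A further 131 tested genes of 10 lists around mitochondrial transport, shape, contacts, turnover and hypoxia were read from the same fit. With edgeR and with DESeq2, 0 of them passed over all genes, where 0.00823% and 0.156% of all tested genes did. At an unadjusted p under 0.05, 7 were higher and 7 lower, 14 of 131 in all, where 5.38% and 5.46% of all tested genes were higher and lower. Of the 131, 66 had a fitted change above 0, with a median log2 fold change of 0.0014. All YY1 siRNA samples lay below all controls for 11 of the 131 and above them for 12, where 8.91% and 7.36% of all tested genes did so.

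Genes of the motors and tethers were read against the 10.8% of all tested genes with an unadjusted p under 0.05. Of 13 other kinesin transport genes, 0 had such a p (median log2 fold change -0.039), the smallest belonging to the scaffold genes Mapk8ip1 (2.78 ± 0.411 and 3.46 ± 0.508 CPM) and Mapk8ip3 (203 ± 13.6 and 229 ± 31.5 CPM) and to the light chain gene Klc3 (1.90 ± 0.162 and 2.33 ± 0.197 CPM). Of 15 dynein genes, 1 had such a p, the light chain gene Dynlt3, at 269, 283 and 317 CPM in controls and 306, 323 and 438 CPM with YY1 siRNA. Its groups overlapped, sample 6 stood highest, and its log2 fold change of 0.30 was 0.11 without that sample. Another light chain gene, Dynlt1a (0.41, SE 0.22), and the adaptor gene Bicd2 (0.13, SE 0.070) followed. The Dynlt1a value was 0.21 without sample 6 and 0.23 without control 1. Of 11 genes of anchoring and the actin motor, Armcx2, of a family of outer membrane proteins linked to mitochondrial transport, had such a p: 92.3, 89.1 and 92.2 CPM in controls and 84.3, 77.5 and 71.9 CPM with YY1 siRNA, without overlap (log2 fold change -0.23, SE 0.074, edgeR adjusted p 0.317). Armcx1 (88.0 ± 1.56 and 80.7 ± 3.61 CPM) and Mtx2 (91.7 ± 2.02 and 98.2 ± 7.38 CPM) had unadjusted p-values over 0.05. Groups did not overlap for 16.3% of all tested genes.

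Genes of fusion control and fission were mixed in direction. Of 14 further fusion genes, Miga1, an outer membrane gene that promotes fusion, had an unadjusted p under 0.05, at 5.44, 6.07 and 4.92 CPM in controls and 2.88, 4.62 and 3.79 CPM with YY1 siRNA (log2 fold change -0.54, SE 0.17, edgeR adjusted p 0.306). Its groups did not overlap, and without YY1 siRNA sample 4, the lowest, the value was -0.36. Stoml2, of the inner membrane, and the kinase gene Pink1 had larger p-values (0.15, SE 0.087, and -0.094, SE 0.089), and the sign of Pink1 turned with the no-gene share as a covariate (0.033). Without sample 6 the values were 0.052 for Stoml2 and -0.025 for Pink1, and without sample 4 that of Pink1 was -0.18. Of 12 fission genes, 3 had an unadjusted p under 0.05, against 10.8% of all tested genes. Mtfr1l was lower (53.7, 56.0 and 50.4 CPM in controls, 47.2, 43.0 and 40.9 CPM with YY1 siRNA, edgeR adjusted p 0.261). Mff, the receptor gene for the fission dynamin, was higher (129 ± 7.70 and 150 ± 20.3 CPM, edgeR adjusted p 0.420), as was Mtfr2 (4.48 ± 0.553 and 6.74 ± 2.31 CPM, edgeR adjusted p 0.411). Groups did not overlap for any of the 3, as for 16.3% of all tested genes, and these 3 were named for their small p. The highest control and lowest YY1 siRNA sample stood at 137 and 138 CPM for Mff and at 5.08 and 5.20 CPM for Mtfr2. Sample 6 stood far above the rest in Mff and Mtfr2, whose log2 fold changes of 0.23 and 0.57 were 0.10 and 0.27 without it.

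**Figure D5:**
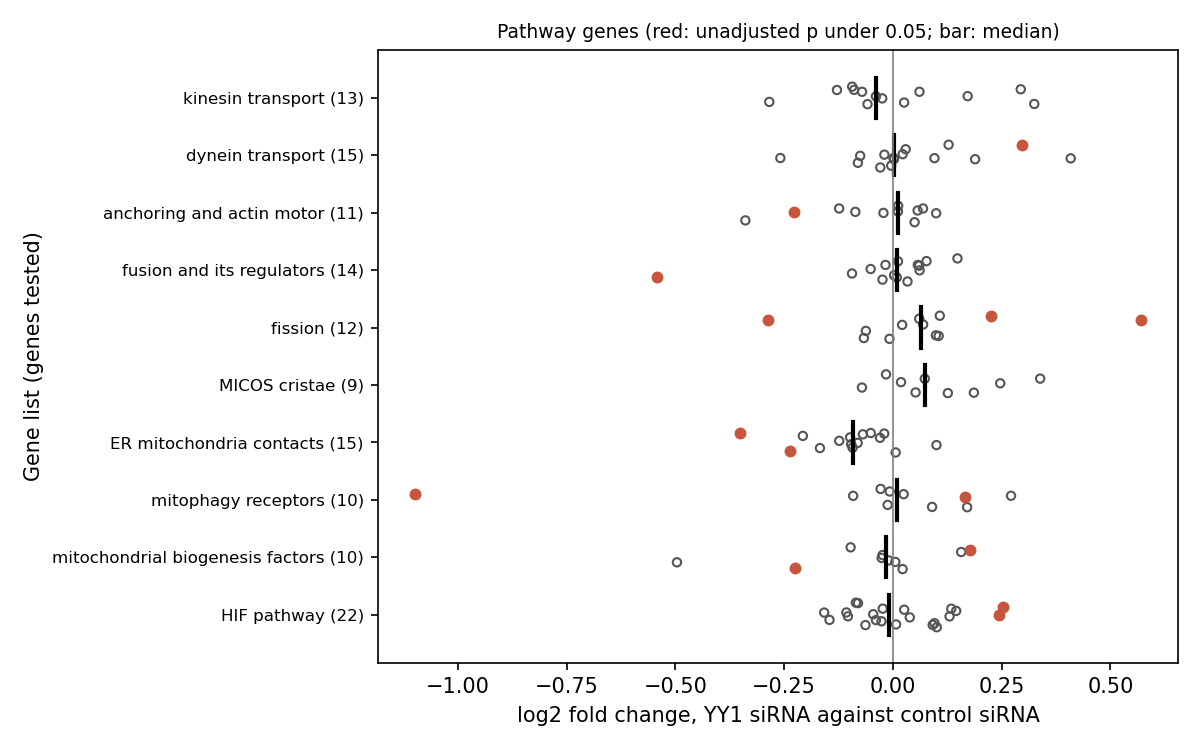
Log2 fold change (x axis) of each tested gene in 10 lists (y axis, genes tested in brackets); filled red points have an unadjusted p under 0.05, open points do not, and bars are medians. The lists centre near 0, with medians from -0.093 to 0.073. No point passed the adjusted threshold, which 0.00823% of all tested genes passed.

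No gene of cristae or of contacts with the endoplasmic reticulum passed the threshold, which 0.00823% of all tested genes passed in the main test. Of 9 genes of MICOS, the complex of the cristae junctions, and of its partners, 7 had a fitted change above 0, against 6100 of all 12148 tested genes. An unadjusted p under 0.05 was found for 0 of the 9. Minos1 stood at 87.1, 97.8 and 116 CPM in controls and 107, 111 and 163 CPM with YY1 siRNA, 2410015M20Rik at 78.6 ± 10.5 and 93.4 ± 23.2 CPM and Chchd6 at 15.9 ± 2.86 and 18.2 ± 2.53 CPM. Sample 6 was the highest for each of the 3, and without it their log2 fold changes of 0.34, 0.25 and 0.19 were 0.11, 0.021 and 0.068. Of 15 genes of contacts with the endoplasmic reticulum, 2 had a fitted change above 0 and 2 an unadjusted p under 0.05, against 10.8% of all tested genes with such a p. The 2 with such a p were the lipid transfer gene Vps13d (65.2, 54.8 and 56.3 CPM in controls, 41.0, 52.3 and 44.9 CPM with YY1 siRNA, edgeR adjusted p 0.261) and the calcium channel gene Itpr1 (27.0 ± 2.97 and 22.9 ± 2.68 CPM, edgeR adjusted p 0.449). The Itpr1 log2 fold change of -0.24 was -0.15 without control 1. Vps13a stood at 34.8 ± 2.90 and 30.1 ± 4.34 CPM.

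Among 10 mitophagy receptor genes, Nipsnap1 had the lowest fitted change of all the lists. It stood at 2.79 ± 0.425 CPM in controls and 1.30 ± 0.020 CPM with YY1 siRNA, without overlap, on at most 62 counts per library (log2 fold change -1.10, SE 0.20, edgeR adjusted p 0.137, DESeq2 adjusted p 0.147). With no filter on low counts, its edgeR adjusted p was 0.0103, over alternatives from 0.0103 to 0.373. Bcl2l13 was higher at an unadjusted p under 0.05 (55.0 ± 1.23 and 61.6 ± 3.82 CPM, edgeR adjusted p 0.431). Such a p was found for 10.8% of all tested genes, and groups without overlap for 16.3%. Bnip3, which hypoxia also induces, stood at 999, 1032 and 1215 CPM in controls and 1105, 1166 and 1647 CPM with YY1 siRNA. Its log2 fold change of 0.27 was 0.063 without sample 6.

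Regulators of mitochondrial content and of the hypoxia response lay on both sides of 0. Of 10 biogenesis factors, the nuclear receptor gene Esrra was higher (54.4, 54.1 and 57.4 CPM in controls, 62.8, 60.7 and 64.1 CPM with YY1 siRNA, edgeR adjusted p 0.388) and Polrmt, the mitochondrial RNA polymerase gene, lower (25.1 ± 1.35 and 21.4 ± 0.479 CPM, edgeR adjusted p 0.362), both at an unadjusted p under 0.05 and without overlap. Over all tested genes, 10.8% had such a p and 16.3% had groups without overlap. Ppargc1b was near the limit of detection at 0.748 ± 0.163 and 0.539 ± 0.176 CPM. Of 22 genes of the HIF pathway, which is known to induce Mgarp, 11 had a fitted change above 0, with a median of -0.0081. Arnt, the partner of the HIF alpha subunits, was higher at an unadjusted p under 0.05 (90.9, 102 and 93.3 CPM in controls, 112, 115 and 114 CPM with YY1 siRNA; log2 fold change 0.25, SE 0.069, edgeR adjusted p 0.261), as was Vhl, whose product marks HIF alpha subunits for breakdown (87.0 ± 10.1 and 103 ± 8.51 CPM, edgeR adjusted p 0.379). The groups were apart for Arnt and overlapped for Vhl. Egln1, a prolyl hydroxylase gene that HIF itself induces, stood at 355 ± 4.84 and 318 ± 30.0 CPM. Hif1a stood at 401 ± 15.3 and 384 ± 15.1 CPM and the HIF target Vegfa at 1060 ± 29.1 and 1164 ± 98.9 CPM, both named outside the rule after their values were seen, and the groups overlapped for both.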

How the data were processed

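The deposited files hold whole-number read counts per gene symbol, 1 table per sample. Tools named for them are STAR 2.6.1a and edgeR 3.30.0, on mm10, per the submitters' processing notes. Counter, annotation and strand use were not stated. The 2 rows that name no gene (7.87% to 11.3% and 1.01% to 1.15% of a sample's counts) were left out.

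Counts were tested in edgeR 4.0.16 under R 4.3.3 (quasi-likelihood, two-sided), with filterByExpr, TMM scaling, robust dispersion and Benjamini-Hochberg adjustment over 12148 genes at 0.05. DESeq2 1.42.0, limma-voom (limma 3.58.1), other scalings and filters, non-robust dispersion, a covariate and leaving out each sample were alternatives. Simulated counts of 12148 genes, 200 of them changed, served to check the code (1 and 20 false calls at 1.2-fold and 1.5-fold). Gene models came from GENCODE M21 (mm10).

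Named are the 9 genes, Yy1, list genes past the threshold, up to 3 genes per list with the smallest p and the 6 genes most like Mgarp. Neighbours of Mgarp and motifs were added later. The genes and lists were chosen with earlier results of these data known.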

Additional observations from a re-analysis of the deposited data

Results flagged for a closer look

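Reads counted to no gene, left out of every comparison, made up 10.7% of YY1 siRNA sample 5 and 11.3% of YY1 siRNA sample 6, above the 7.99% to 9.03% of the control siRNA samples. Mgarp was low in these samples (41.3 and 44.9 CPM) and in YY1 siRNA sample 4 (47.0 CPM), whose share was 7.87%. With the share as a covariate, the Mgarp log2 fold change was -0.46 (edgeR adjusted p 0.205), against -0.51 (edgeR adjusted p 0.0713) without. Mgarp was chosen by these values, and the part of the share in them was not tested.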

How the results depend on the processing

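The labels do not say whether samples of the groups were paired, and no paired analysis was run. None of the 8 genes besides Mgarp passed under any of the 14 alternatives, leaving out each sample included (0 to 0). Of their 112 values under alternatives, 109 kept their sign, and those that turned were Rhot1 with library size alone (-0.0035) and Trak2 when control sample 3 (-0.018) or YY1 siRNA sample 5 (-0.0076) was left out (range without each sample -0.018 to 0.074). Of 419 values for the 30 named pathway genes, 418 kept their sign, the exception being Pink1 with the covariate (0.033). The number of pathway genes past the threshold, 0 in the main test, was 1 without a filter on low counts (Nipsnap1) and 0 without each sample in turn. Mgarp had a log2 fold change of -0.55 to -0.46 throughout and an adjusted p under 0.05 under scaling by library size (0.0315), without the filter (0.000378), in DESeq2 (0.000862), and with edgeR without YY1 siRNA sample 4 (0.0382) or 6 (0.0368). Without the other samples it was 0.139 to 0.342, and with the covariate 0.205. Mgarp was chosen by these values, so none of these p-values is a test of it. Yy1 passed throughout (-0.71 to -0.66). The paralog differences kept their sign without each sample in turn: -0.27 to -0.16 for Trak1 to Trak2, -0.081 to -0.013 for Rhot1 to Rhot2 and 0.15 to 0.27 for Mfn1 to Mfn2. All-gene counts of calls, 1 in the main test, were 7 under scaling by library size, 83 without the filter, 19 in DESeq2 and 1 to 41 without each sample, the 41 when YY1 siRNA sample 4 was left out. The cause was not tested.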
